A study of Mus musculus with 8 samples.

Results

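Semaphorins, their plexin receptors and the cytosolic mediators Dpysl2 and Dpysl3 were examined in mouse embryonic cortex (embryonic day 16). The family was given as a list of 31 genes (20 semaphorins, 9 plexins and 2 mediators), and a gene was taken as measured where the platform annotation pairs a probe set with that symbol alone. All 31 were measured, by 33 probe sets, among 19938 genes in all. The 8 Affymetrix whole-transcript arrays comprise 4 of wild-type controls, described as lacking the TetO-VEGF-A164 transgene, and 4 of GFAP-tTA: TetO-VEGF-A164 bitransgenic embryos with induced overexpression of VEGF, all on a mixed strain background. The transgene needs tTA, the tetracycline-controlled transactivator, which is made only in cells where the GFAP promoter is active, in the embryonic cortex mainly radial glia. Whether the controls carry the transactivator is not stated, and the transgene cannot be told apart from it, from the insertions or from strain. No label says whether the arrays of a group are separate litters, single embryos or pools, so p-values here rest on a spread among arrays that may be technical.

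Semaphorins are guidance ligands that steer growing axons, migrating neurons and sprouting vessels. Class 3 semaphorins are secreted and mostly act through a neuropilin joined to a class A plexin, whereas classes 4 to 6 span the membrane and bind plexins directly. Class 7 is held at the membrane by a lipid anchor. Plexins turn off small GTPases and detach the cytoskeleton at the growth cone, and collapsin response mediators such as Dpysl2 link the signal to microtubules. Neuropilin 1 is shared with VEGF-A, whose heparin-binding isoform it also binds.

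The deposited values were taken as log2, and each probe set is centred on its median over the 8 arrays. No absolute level is kept, so genes cannot be ranked by abundance, folds assume a base of 2, and the labelled cortex cannot be checked by the level of its markers. With an even number of arrays this centring also makes the 2 middle values of a probe set equal and opposite. Array medians lay between -0.0091 and 0.015, and no 2 arrays held identical values. Xist gave a female pattern in 1 control (control 3) and 2 VEGF-labelled arrays (VEGF 2 and VEGF 3). Vegfa, the gene of the transgene, was at -0.10, 0.036, -0.12 and 0.026 in control 1 to 4 and 0.059, 0.078, -0.026 and -0.055 in VEGF 1 to 4, and the groups overlapped. Its difference was 0.053 (SE 0.0506, 95% interval -0.061 to 0.17), with an exact two-sided permutation p of 0.343 and a limma adjusted p of 0.748. It cannot be told here whether the Vegfa probe set reads the transgenic transcript, so these values show neither the presence nor the absence of overexpression. Vegfa therefore does not check the labels, the group is called VEGF-labelled below, and every difference is VEGF-labelled minus control.

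Of the 31 genes, 28 were lower in the VEGF-labelled arrays (26 after quantile normalization) and 3 were higher, where 56.7% of all genes were lower and 43.3% higher. The median difference over the family was -0.10 on the log2 scale, or 0.932-fold, and over all genes it was -0.010. No member passed an adjusted p of 0.05 in limma (0 of 31, lowest adjusted p = 0.243), and neither did any of the 19938 genes, so percent called was 0.0%. The methods' t-test on the same values also passed 0 members after adjustment and gave 8 on the lower side at an unadjusted p under 0.05. At an unadjusted limma p under 0.05 there were 13 members on the lower side, which is 41.9% of the family against 7.84% of all genes, and 1 on the higher side against 4.62%. In 5 members (16.1%) the 4 VEGF-labelled arrays lay wholly below the 4 control arrays, against 4.71% of all genes. In 0 members did they lie wholly above, against 2.13%. The members were chosen with earlier results of these data known, so these shares describe the family and do not test it. Differences were small in size, and 14 members were within 0.1 of zero. Lower by more than 0.2 were 10 of the 31 members, against 587 of all 19938 genes (2.94%). The count of 13 was 8 without control 4, and the single member on the higher side was lost without control 1, control 4, VEGF 1, VEGF 2 or VEGF 4. In bulk tissue, fewer cells of a type and less RNA per cell cannot be told apart.

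**Figure D1:**
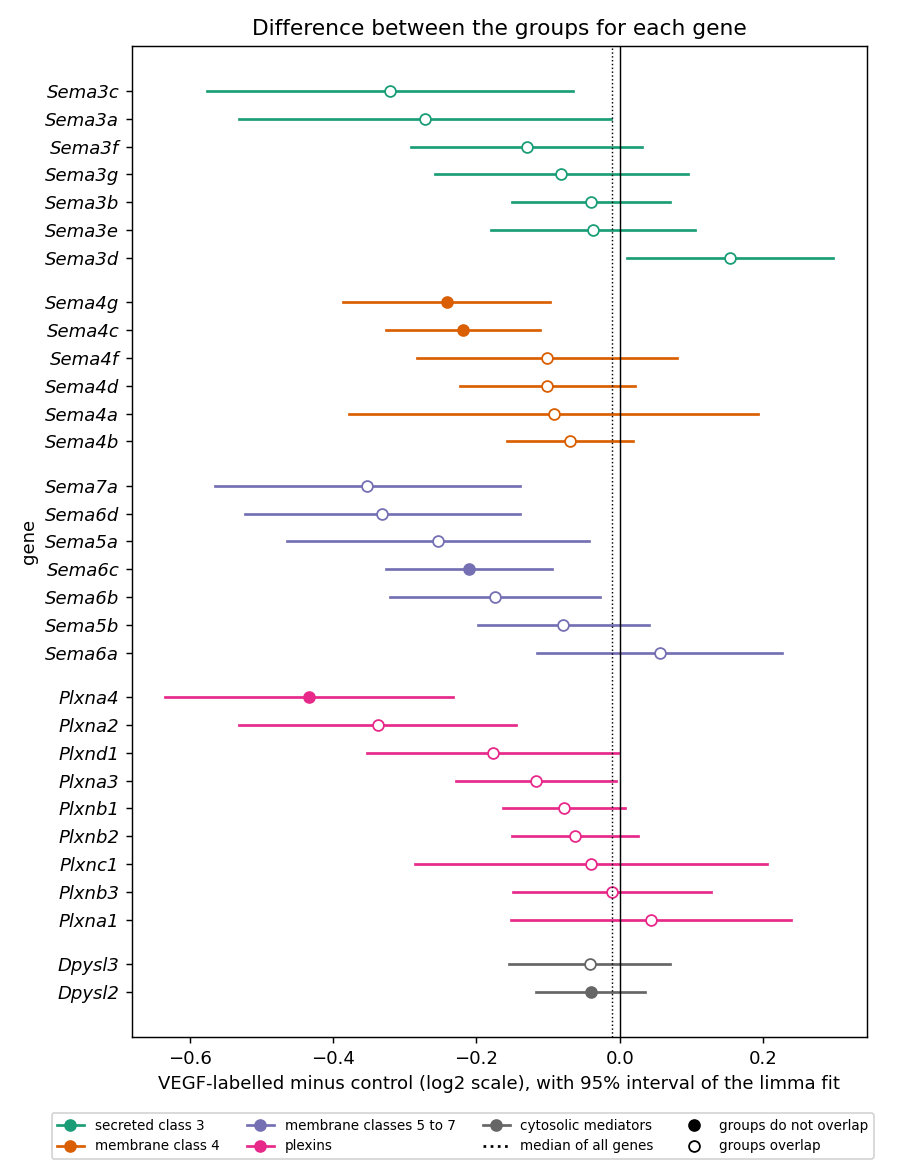
Difference between the VEGF-labelled and control arrays for each of the 31 genes (x axis, log2 scale; y axis, genes grouped by class), with the 95% interval of the limma fit and the median of all genes as a dotted line. Filled points mark the 5 genes whose groups do not overlap, and 28 of the 31 points lie below 0, from -0.43 for Plxna4 upwards.

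The largest difference of the family lay in a plexin, the receptor class. Plxna4, a class A plexin through which Sema3a and Sema6a act on cortical and sensory axons, was at 0.32, 0.046, 0.075 and 0.31 in control 1 to 4 and -0.29, -0.40, -0.25 and -0.046 in VEGF 1 to 4. All VEGF-labelled arrays were below all control arrays, with VEGF 4 close to the lowest control and VEGF 2 lowest. The group means were 0.19 ± 0.15 for controls (SD, n = 4) and -0.25 ± 0.15 for VEGF-labelled arrays (SD, n = 4). The difference was -0.43 (SE 0.089, 95% interval -0.63 to -0.23), or 0.741-fold, the largest in size of the 31, with a limma adjusted p of 0.243. Plxna2, another receptor for Sema6a, was at 0.24, -0.015, 0.077 and 0.24 in control 1 to 4 and -0.26, -0.35, -0.22 and 0.015 in VEGF 1 to 4. Here VEGF 4 lay inside the control range and the other VEGF-labelled arrays below it. The difference was -0.34 (SE 0.0858, 95% interval -0.53 to -0.14), 0.791-fold, with a limma adjusted p of 0.243.

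The control arrays also differed among themselves. For both Plxna4 and Plxna2, control 1 and control 4 were the highest of the 8 arrays, at 0.24 or more, while control 2 and control 3 were at 0.077 or less. The third class A plexin, Plxna3, a receptor used with neuropilin 2 for Sema3f, differed by -0.12 (95% interval -0.23 to -0.0051, limma adjusted p = 0.383), and its control arrays were tightly grouped, between -0.0043 and 0.051. Plxna1, a receptor for Sema6d, was the exception in its class, with a difference of 0.043 and an interval of -0.15 to 0.24 that holds both directions. It was highest in VEGF 1 at 0.28 and lowest in VEGF 3 at -0.075. Over the 4 class A plexins the median difference was -0.23. An unadjusted limma p under 0.05 on the lower side was found in 3 of 4, against 7.84% of all genes.

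The 5 plexins of classes B, C and D had a median difference of -0.062, and all 5 were lower, against 56.7% of all genes. Plxnb3 and Plxnc1 turned to 0.0072 and 0.0051 after quantile normalization. Plxnd1, the receptor of Sema3e and a gene of vessels as well as neurons, differed by -0.18 (95% interval -0.35 to -0.0021, limma adjusted p = 0.398). It was at -0.24, -0.28 and -0.19 in VEGF 1 to 3 and at 0.11 in VEGF 4, which was the highest of the 8 arrays. Plxnb1 and Plxnb2, receptors for Sema4d and Sema4c, differed by -0.078 (-0.16 to 0.0074) and -0.062 (-0.15 to 0.026). The Plxnb3 difference was -0.011 (-0.15 to 0.13). That of Plxnc1, the receptor of Sema7a, was -0.040 (-0.29 to 0.21), with values from -0.37 in VEGF 3 to 0.13 in control 2.

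**Figure D2:**
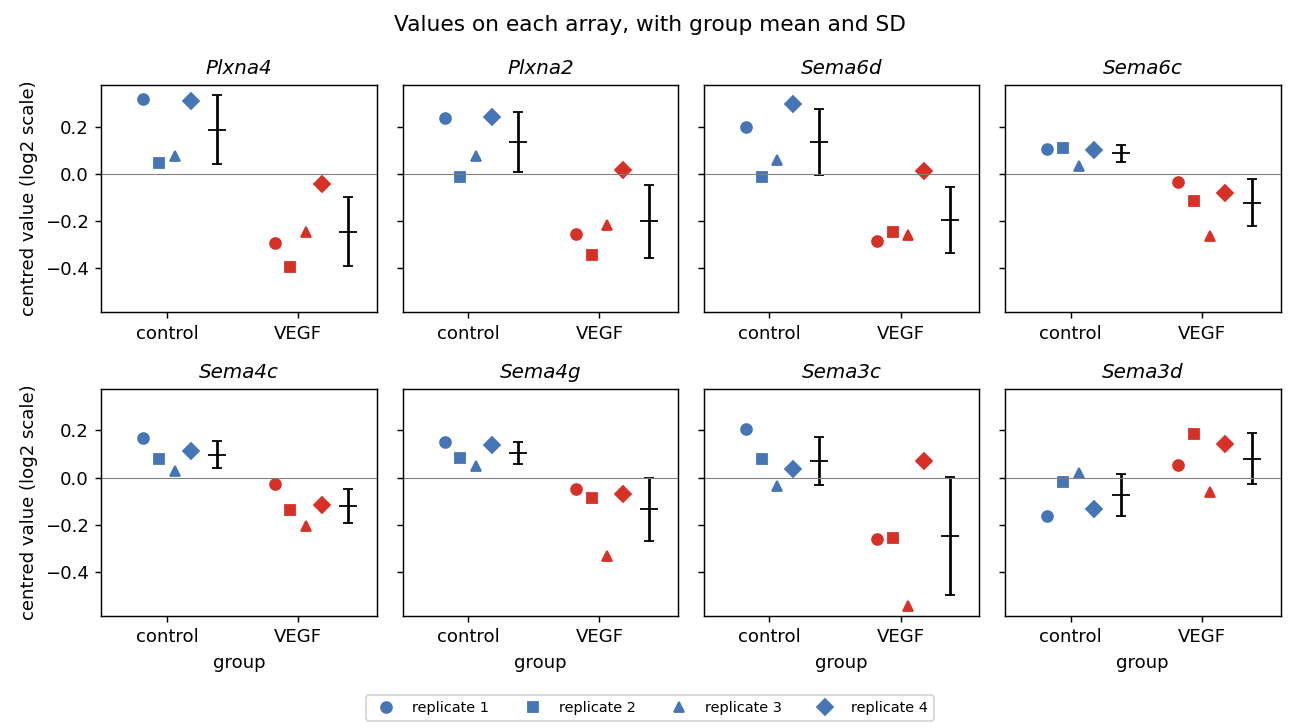
Centred values (y axis, log2 scale) of 8 genes on each array, control in blue and VEGF-labelled in red, with marker shapes for replicate numbers and the group mean and SD as a black bar. In Plxna4, Sema6c, Sema4c and Sema4g all red points lie below all blue points, whereas in Plxna2, Sema6d and Sema3c the VEGF 4 diamond lies among the controls, and in Sema3d the red points are mostly higher.

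Among membrane ligands, classes 5 to 7 had the largest median difference of the 5 classes, at -0.21. In these classes 6 of 7 genes were lower, against 56.7% of all genes. At an unadjusted limma p under 0.05 on the lower side were 5 of the 7, against 7.84% of all genes. Sema6c, a transmembrane semaphorin of neurons, was at 0.10, 0.11, 0.033 and 0.10 in control 1 to 4 and -0.033, -0.12, -0.26 and -0.081 in VEGF 1 to 4. The groups did not overlap: 3 of the controls were within 0.10 to 0.11, and VEGF 3 was lowest. The difference was -0.21 (SE 0.0512, 95% interval -0.33 to -0.094), 0.865-fold, with a limma adjusted p of 0.243. Sema6d, which binds Plxna1, was at 0.20, -0.013, 0.057 and 0.30 in control 1 to 4 and -0.29, -0.25, -0.26 and 0.013 in VEGF 1 to 4. VEGF 1 to 3 were close together and below every control, while VEGF 4 lay between control 2 and control 3. The difference was -0.33 (SE 0.0849, 95% interval -0.52 to -0.14) with a limma adjusted p of 0.243.

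Sema7a, the lipid-anchored semaphorin that also acts through integrin beta 1, had the largest difference of the 20 semaphorins and was singled out after its values were seen. It differed by -0.35 (SE 0.0942, 95% interval -0.57 to -0.14), 0.783-fold, with a limma adjusted p of 0.243. Its values ran from -0.45 in VEGF 2 to 0.18 in control 1, and VEGF 4 at 0.025 was above control 3 at -0.025. Sema5a, a membrane semaphorin with thrombospondin repeats, differed by -0.25 (-0.46 to -0.043, limma adjusted p = 0.333) and Sema6b by -0.17 (-0.32 to -0.028, limma adjusted p = 0.334). Both probe sets of Sema6b gave -0.17. Sema5b differed by -0.079 (-0.20 to 0.040). The one gene of these classes on the higher side was Sema6a, a plexin A ligand, with 0.056 and an interval of -0.11 to 0.23.

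All 6 class 4 semaphorins were lower, against 56.7% of all genes, with a median difference of -0.10. In 2 of the 6 the VEGF-labelled arrays lay wholly below the controls, against 4.71% of all genes. Sema4c, a ligand of Plxnb2, was at 0.17, 0.080, 0.027 and 0.11 in control 1 to 4 and -0.027, -0.14, -0.21 and -0.12 in VEGF 1 to 4. Every VEGF-labelled array was below every control array, and VEGF 4 was well inside its group. The means were 0.10 ± 0.058 for controls (SD, n = 4) and -0.12 ± 0.074 for VEGF-labelled arrays (SD, n = 4), and the difference was -0.22 (SE 0.0474, 95% interval -0.33 to -0.11), 0.859-fold, with a limma adjusted p of 0.243. Sema4g, another transmembrane semaphorin, was at 0.15, 0.084, 0.051 and 0.14 in control 1 to 4 and -0.051, -0.085, -0.33 and -0.072 in VEGF 1 to 4. The groups did not overlap, and VEGF 3 stood apart below the rest. The difference was -0.24 (SE 0.0639, 95% interval -0.39 to -0.10) with a limma adjusted p of 0.243.

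The other class 4 genes gave intervals that hold 0. Sema4f differed by -0.10 (-0.28 to 0.080), Sema4b by -0.070 (-0.16 to 0.018) and Sema4a, which is best known from immune cells, by -0.092 (-0.38 to 0.19). Sema4a was at 0.16 and 0.15 in VEGF 1 and VEGF 2 but at -0.36 and -0.32 in VEGF 3 and VEGF 4, above and below every control array respectively. Sema4d, the ligand of Plxnb1, differed by -0.10 (-0.22 to 0.021), the mean of 2 probe sets that gave -0.029 and -0.17 and therefore disagreed in size.

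Sema4c, Sema4g, Sema6c and Plxna2 are shown as examples with the bases just before their transcription starts. They were picked by hand from the members that are lower on most or all VEGF-labelled arrays and have a RefSeq entry. Other members also meet this, so the 4 do not stand for the family. The sequences are 250 bases upstream of the start, 5′ to 3′ on the gene's strand, from RefSeq on GRCm38.p6, and where a gene had 2 starts the one farthest upstream was taken. Capitals mark GC boxes, the motif GGGCGG on either strand, which is bound by Sp family factors. The windows are chr1:36558382-36558631, minus strand for Sema4c, chr19:44989094-44989343, plus strand for Sema4g, chr3:95160170-95160419, plus strand for Sema6c and chr1:194619579-194619828, plus strand for Plxna2.
Sema4c: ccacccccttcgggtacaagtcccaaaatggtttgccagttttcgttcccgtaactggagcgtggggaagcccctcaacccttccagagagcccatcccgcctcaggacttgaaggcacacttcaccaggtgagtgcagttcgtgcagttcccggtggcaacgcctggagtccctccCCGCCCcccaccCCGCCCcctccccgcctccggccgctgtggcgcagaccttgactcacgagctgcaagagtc
Sema4g: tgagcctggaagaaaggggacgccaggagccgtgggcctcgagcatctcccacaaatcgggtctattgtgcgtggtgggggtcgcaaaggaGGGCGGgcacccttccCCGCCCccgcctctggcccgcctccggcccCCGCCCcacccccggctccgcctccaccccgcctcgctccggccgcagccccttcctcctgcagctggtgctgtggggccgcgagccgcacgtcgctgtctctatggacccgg
Sema6c: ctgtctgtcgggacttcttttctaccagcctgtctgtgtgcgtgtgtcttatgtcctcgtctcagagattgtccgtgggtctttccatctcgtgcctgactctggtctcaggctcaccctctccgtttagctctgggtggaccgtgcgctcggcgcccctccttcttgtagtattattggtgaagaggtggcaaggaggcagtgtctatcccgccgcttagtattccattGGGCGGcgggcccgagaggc
Plxna2: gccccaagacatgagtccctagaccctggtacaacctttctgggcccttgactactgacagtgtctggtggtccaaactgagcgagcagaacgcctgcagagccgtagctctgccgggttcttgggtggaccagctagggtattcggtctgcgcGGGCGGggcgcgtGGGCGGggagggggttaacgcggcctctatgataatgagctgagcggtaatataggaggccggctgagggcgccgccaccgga
The 4 windows hold 2, 3, 1 and 2 GC boxes in the order shown, and their G and C content is 64.4%, 73.2%, 57.6% and 62.8%. RefSeq entries were found for 24 of the 31 genes, with 35 starts. A GC box was present in 25 of these 35 windows (71.4%), against 45.5% of 19177 windows of genes on the array. The median G and C content was 63.6% over the 35 windows and 56.8% over the 19177, and the part of base composition in the motif shares was not tested. An E-box (CANNTG, the motif of basic helix-loop-helix factors) was present in 19 (54.3%, against 62.1%). The hypoxia element core ACGTG was present in 7 (20.0%, against 18.4%), and it can overlap an E-box. The TATA box TATAAA was found in 0 of 35, against 10.5%. Both strands were searched, starts of 1 gene are not independent, and a match is a description of the letters only.

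Secreted class 3 ligands were lower in 6 of 7 genes, against 56.7% of all genes, with a median difference of -0.081. Sema3c, which attracts cortical axons and guides vessels and neural crest, was at 0.21, 0.080, -0.035 and 0.035 in control 1 to 4 and -0.26, -0.26, -0.54 and 0.069 in VEGF 1 to 4. VEGF 1 to 3 were below every control, VEGF 3 lowest of all, and VEGF 4 lay within the control range. The difference was -0.32 (SE 0.113, 95% interval -0.58 to -0.065) with a limma adjusted p of 0.317. Sema3d went the other way and was the only member at an unadjusted p under 0.05 on the higher side. It was at -0.16, -0.020, 0.020 and -0.13 in control 1 to 4 and 0.053, 0.19, -0.062 and 0.14 in VEGF 1 to 4, and only VEGF 3 among the VEGF-labelled arrays lay within the control range. The difference was 0.15 (SE 0.0636, 95% interval 0.011 to 0.30) with a limma adjusted p of 0.375.

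Sema3a, the prototype repellent of cortical axons, differed by -0.27 (-0.53 to -0.012, limma adjusted p = 0.383). Its spread was wide in both groups, from -0.41 in VEGF 1 to 0.29 in control 4, and control 2 at -0.12 lay below VEGF 3 and VEGF 4. Sema3f, which acts through neuropilin 2, differed by -0.13 (-0.29 to 0.032), with VEGF 3 at -0.29 and the other VEGF-labelled arrays between -0.022 and 0.0056. Sema3g, a semaphorin of arterial endothelium, differed by -0.081 (-0.26 to 0.095), Sema3b by -0.040 (-0.15 to 0.070) and Sema3e by -0.038 (-0.18 to 0.10).

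Both mediators of the signal inside the cell had small differences. Dpysl2 (CRMP2), a tubulin-binding protein required for Sema3a-induced growth cone collapse, was at 0.026, 0.000081, 0.019 and 0.017 in control 1 to 4 and -0.0082, -0.000080, -0.090 and -0.0021 in VEGF 1 to 4. The groups did not overlap, but the highest VEGF-labelled and the lowest control value were less than 0.001 apart. The difference was -0.041 (SE 0.0336, 95% interval -0.12 to 0.035), with a limma adjusted p of 0.700. Dpysl3 (CRMP4), its close relative, was at 0.011, 0.028, -0.021 and -0.011 in control 1 to 4 and 0.024, 0.042, -0.17 and -0.052 in VEGF 1 to 4. Only VEGF 3 stood well below the others, and the difference was -0.042 (SE 0.0496, 95% interval -0.15 to 0.070) with a limma adjusted p of 0.815.

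**Figure D3:**
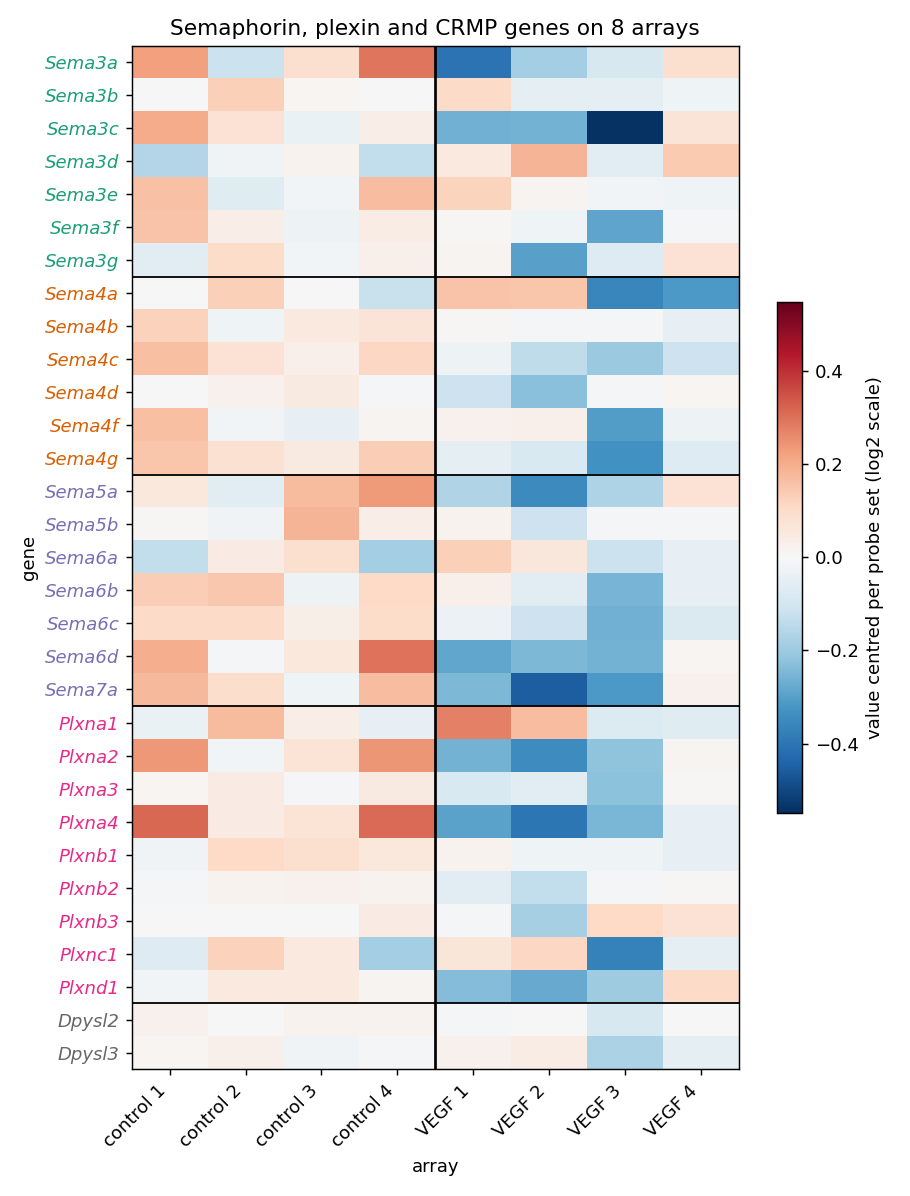
Centred value (colour, log2 scale) of each of the 31 genes (rows, by class) on each of the 8 arrays (columns). Blue cells gather in VEGF 1 to VEGF 3, and VEGF 4 is close to white in most plexin rows.

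Known ligand and receptor pairs were set side by side. For Sema7a and Plxnc1 the differences were -0.35 and -0.040, and for Sema3e and Plxnd1 they were -0.038 and -0.18, so one partner was near 0 in each pair. For Sema6a the difference was 0.056, beside -0.34 and -0.43 for its receptors Plxna2 and Plxna4. Sema6d and Plxna1 had -0.33 and 0.043, and Sema4c and Plxnb2 had -0.22 and -0.062. In Sema5a and Plxnb3 they were -0.25 and -0.011. The other pairs were Sema3a with Plxna4 at -0.27 and -0.43, Sema3f with Plxna3 at -0.13 and -0.12, and Sema4d with Plxnb1 at -0.10 and -0.078. The difference between partners was not tested.

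Of 40 other genes of the pathway, 38 were measured, and Pak1 and Ptk2 were not analysed here. They comprise co-receptors, kinases, GTPases and their regulators. Of the 38, 31 were lower and 7 higher, beside 56.7% and 43.3% of all genes, with a median difference of -0.056. None passed the limma test over all genes, and 8 (21.1%, against 7.84% of all genes) had an unadjusted p under 0.05 on the lower side and 0 on the higher side, against 4.62%. In both neuropilins the interval held 0. Nrp1, the co-receptor shared with VEGF-A, was at 0.10, 0.026, -0.081 and 0.065 in control 1 to 4 and -0.13, 0.059, -0.24 and -0.026 in VEGF 1 to 4 and differed by -0.11 (SE 0.0675, 95% interval -0.26 to 0.041), with overlapping groups. The Nrp1 difference ran from -0.061 without VEGF 3 to -0.16 without VEGF 2, where its limma adjusted p was 0.418. Nrp2 was at -0.19, 0.18, 0.073 and -0.0038 in control 1 to 4 and 0.042, 0.0038, -0.19 and -0.015 in VEGF 1 to 4 and differed by -0.054 (SE 0.0814, 95% interval -0.24 to 0.13).

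Cntn2 (TAG-1), an adhesion molecule of growing corticofugal axons and a partner of L1 in class 3 responses, had the largest difference of the pathway genes. It was at 0.39, 0.036, -0.036 and 0.41 in control 1 to 4 and -0.59, -0.69, -0.45 and 0.037 in VEGF 1 to 4. VEGF 1 to 3 were far below the controls and VEGF 4 was level with control 2. The difference was -0.62 (SE 0.164, 95% interval -0.99 to -0.25), 0.649-fold, with a limma adjusted p of 0.243. Rnd1, which binds the cytoplasmic part of plexins, was at 0.25, 0.044, 0.064 and 0.016 in control 1 to 4 and -0.16, -0.15, -0.24 and -0.016 in VEGF 1 to 4 without overlap and differed by -0.23 (-0.38 to -0.091, limma adjusted p = 0.243). Rhoa, the GTPase that plexin B activates, was at 0.14, 0.042, 0.019 and 0.12 in control 1 to 4 and -0.078, -0.029, -0.051 and -0.053 in VEGF 1 to 4, also without overlap, and differed by -0.13 (-0.22 to -0.047, limma adjusted p = 0.243). Cdk5r1 (p35), the activator of the kinase that phosphorylates Dpysl2, was at 0.23, 0.19, 0.015 and 0.18 in control 1 to 4 and -0.015, -0.085, -0.35 and -0.039 in VEGF 1 to 4 and differed by -0.28 (-0.46 to -0.10, limma adjusted p = 0.245). For Cdk5r1 the groups did not overlap either, and VEGF 3 was lowest.

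The arrays differed in how far the family was shifted. The median over the 31 genes was 0.026, 0.044, 0.027 and 0.040 in control 1 to 4 and -0.0082, -0.085, -0.17 and -0.0056 in VEGF 1 to 4. VEGF 3 was the lowest of the 8 arrays in 13 genes and VEGF 2 in 11, while VEGF 1 and VEGF 4 were lowest in 2 each. The arrays also differed in spread over all probe sets. The interquartile range was 0.14 in VEGF 2, 0.10 in VEGF 3 and control 2, and 0.061 to 0.085 in the others. How often each array was lowest over all genes was not counted, so these counts are not particular to the family. VEGF 2 and VEGF 3 were also the VEGF-labelled arrays of female Xist pattern, beside control 3. With the sex pattern as a covariate, 10 members had an unadjusted limma p under 0.05 on the lower side. The median difference was then -0.090, against -0.0051 over all genes. Without the 3 arrays of female pattern the count was 8 and the median difference -0.075, against -0.0025 over all genes. The share of all genes at that p was not counted in either fit. There were 11 genes in which exactly 3 VEGF-labelled arrays lay below every control, and in 8 of these the array that overlapped was VEGF 4. Without VEGF 4 the lowest limma adjusted p of the family was 0.064 and 0 of 31 passed, while 10 of all genes tested passed, against 0 with that array.

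Markers of other cells and of neighbouring tissue also differed between the arrays. Of 18 projection neuron genes 17 were measured, with 12 lower and 5 higher and 7 at an unadjusted p under 0.05 on the lower side. Their mean was between 0.0047 and 0.15 in control arrays, and between -0.23 and 0.027 in VEGF-labelled ones. On that mean control 1 (0.15) and control 4 (0.12) were highest, and VEGF 4 (0.027) lay within the control range. Of the 13 members at an unadjusted limma p under 0.05 on the lower side, 7 had control 1 and control 4 as highest controls. The median over all 31 members had another order, with control 1 the lowest control (0.026) and control 2 the highest (0.044). Of 19 interneuron and ventral forebrain genes 17 were measured and all 17 were lower, 12 at an unadjusted p under 0.05, with means of 0.023 to 0.39 in control arrays and -0.72 (VEGF 3) to -0.096 in VEGF-labelled ones. The 8 thalamus and hippocampus genes had 7 higher, 2 at an unadjusted limma p under 0.05 on the higher side and 1 on the lower side, with means of -0.32 to 0.24 in control arrays and -0.20 to 0.59 in VEGF-labelled ones. Of all genes, 56.7% were lower, with 7.84% at that p on the lower side and 4.62% on the higher side.

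With the mean of the projection neuron list as a covariate, 0 of 31 members had an unadjusted limma p under 0.05, 21 were lower and the median difference was -0.037. With the interneuron list mean, 2 members were below that p on the lower side, 19 were lower and the median was -0.046. With the thalamus and hippocampus list mean, 11 were below that p on the lower side, 29 were lower and the median was -0.11. Over all genes the medians were -0.0091, -0.0028 and -0.021 in the same order, and the share at that p was not counted. These list means differ between the groups themselves, so a fit with one of them also takes out the part of the group difference that it shares with the family. The part of cell composition in the differences was not tested, since these fits cannot separate it from the group difference. When the arrays of highest thalamic mean were left out (VEGF 1, VEGF 2 and control 2), 10 members had an unadjusted p under 0.05 on the lower side and the median was -0.13.

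Vessels and meninges also express some semaphorins and plexins. Of 10 endothelial genes 7 were lower and 3 higher, with a median difference of -0.0086 (0.023 after quantile normalization, with 7 higher), 0 at an unadjusted limma p under 0.05, and means of -0.18 to 0.095 in control arrays and -0.25 to 0.057 in VEGF-labelled ones. Of 8 meningeal and fibroblast genes 5 were higher, with a median of 0.024 (7 higher and 0.080 after quantile normalization), 1 gene at an unadjusted limma p under 0.05 on the lower side, and a lowest mean of -0.46 in VEGF 3. Microglia (8 genes) had a median of 0.068 and choroid plexus (5 genes) one of -0.14. All 7 measured red cell genes were higher, 3 at an unadjusted limma p under 0.05, with a median of 0.44 and a mean of 0.81 in VEGF 1. Mitosis genes were higher in 11 of 11 measured of 12, with a median of 0.21, 5 at an unadjusted limma p under 0.05 on the higher side and 2 with the VEGF-labelled arrays wholly above the controls. Radial glia genes were higher in 8 of 10, with a median of 0.077, 4 at an unadjusted limma p under 0.05 on the higher side and 4 with the VEGF-labelled arrays wholly above the controls. Of 6 genes of cortical identity 4 were measured (Emx1, Emx2, and Tbr1 and Neurod6, which the projection neuron list also holds), with 2 higher, 2 lower and a median of -0.13. In none of these lists did a gene pass the limma test over all genes.

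**Figure D4:**
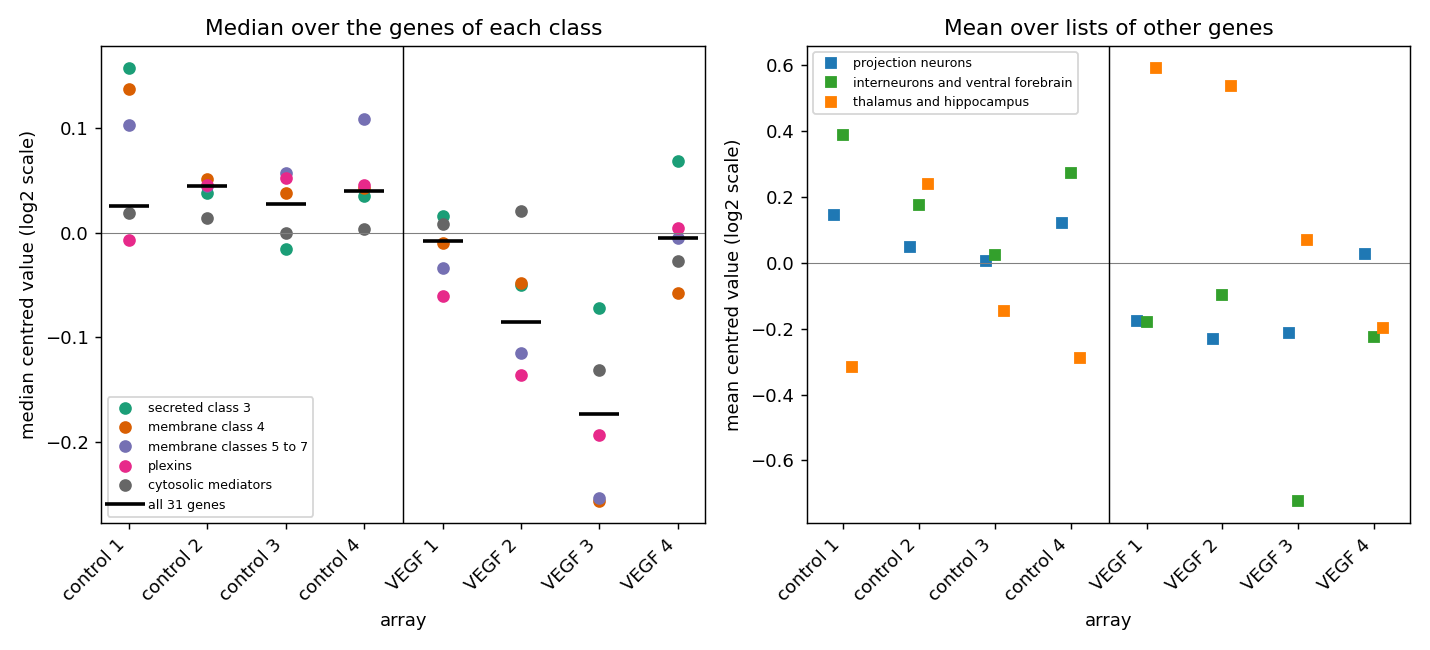
Left, median centred value of each class and of all 31 genes on each array (y axis, log2 scale). Right, mean centred value of 3 lists of other genes on the same arrays: the median over the 31 genes lies between 0.026 and 0.044 in the controls and is lowest in VEGF 3 at -0.17, where the interneuron list is also lowest at -0.72.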

How the data were processed

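RNA of brain cortex was extracted with a Qiagen RNeasy kit and, from 120 ng of total RNA per sample, labelled with Ambion and Affymetrix WT kits, per the labels' protocols. Affymetrix Expression Console and the build mm8 are named in the submitters' processing notes, while the summarisation method was not given in the sources used here. Values deposited by the authors fit a log2 scale by their range (28853 probe sets, 8 arrays, 0 missing values), each centred within 5e-07 of a median of 0 per probe set. The platform annotation gives a single symbol for 21789 probe sets; 1621 with several symbols and 5443 unnamed here were left out. Entrez identifiers tied 21698 of the 21789 to current RefSeq symbols (GRCm38.p6), and probe sets of a gene were averaged.

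limma 3.58.1 in R 4.3.3 was fitted to all 19938 genes on the 8 arrays without covariates, with empirical Bayes moderation (prior df 3.12, residual df 6), p-values adjusted by Benjamini-Hochberg across every gene, and 0.05 as the threshold. The SE and 95% interval are those of this fit. No filter on dim probe sets was possible, and the number of arrays limits the precision. Alternatives were a replicate block, array centring, quantile normalization, another prior, array weights, covariates (sex pattern and 3 list means), the methods' t-test, the probe set of widest spread and leaving out arrays. Genes given array by array are those whose groups do not overlap and the 2 of smallest p in each class, plus, among other pathway genes, the 4 of smallest p and both neuropilins. The members and lists were chosen with earlier results of these data known.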

Additional observations from a re-analysis of the deposited data

Results flagged for a closer look

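Among 76 groups of 4 arrays (the 31 genes, Vegfa and 6 other pathway genes in each group), 8 held an array whose gap to the nearest of the others was, as a share of the group's range, past Dixon's 95% critical value. Chance alone gives about 1 in 20. VEGF 3 was the array set apart in 3 genes: Sema3f at -0.29 against -0.022 to 0.0056 in the other VEGF-labelled arrays, Sema4g at -0.33 against -0.085 to -0.051, and Dpysl2 at -0.090 against -0.0082 to -0.00008. VEGF 4 was set apart in Sema6d, at 0.013 against -0.29 to -0.25. Among the controls, control 2 was apart in Sema3b (0.13 against -0.00010 to 0.011), control 3 in Sema6c (0.033 against 0.10 to 0.11), control 1 in Plxnb2 (-0.0074 against 0.017 to 0.022) and control 4 in Plxnb3 (0.046 against -0.0020 to 0.00028). Without VEGF 3 the difference of Sema4g was -0.17 and that of Dpysl2 was -0.019, and without VEGF 4 that of Sema6d was -0.40.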

How the results depend on the processing

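No member passed the adjusted test (limma, or the methods' t-test where that is the alternative) under any of the 21 alternatives, which include 2 sets of 3 arrays left out that were chosen after seeing the data. Of all genes, 10 passed without VEGF 4, 1 after quantile normalization, 1 without the 3 arrays of high thalamic values, and 0 under the other alternatives. The 13 members at an unadjusted p under 0.05 on the lower side became 0 with the projection neuron list mean and 2 with the interneuron list mean as a covariate, 8 with the methods' t-test, 8 without the 3 arrays of female pattern, and 8 to 14 when single arrays were left out. The 1 member on the higher side became 0 with the replicate block, with the sex pattern, the projection neuron or the thalamus list mean as a covariate, with the methods' t-test and without the 3 arrays of high thalamic values, and 0 to 1 when single arrays were left out. The median difference of -0.10 became -0.037 with the projection neuron and -0.046 with the interneuron list mean. Only the first of these changes was larger than the within-group SD of the array medians (0.057), and the second was just inside it. Under the other alternatives the median also stayed within that SD of its main value, with -0.13 to -0.077 when single arrays were left out. Of 336 values of the 16 named genes under alternatives, 328 kept their direction. This count includes fits that cannot change a difference. They are the replicate block, the other prior, the methods' t-test and, for genes with 1 probe set, the probe set of widest spread. With the interneuron list mean Dpysl2 was 0.023, Dpysl3 0.099 and Nrp1 0.10, and with the projection neuron list mean Sema3c was 0.056 and Cntn2 0.0085. With single arrays left out Dpysl3 ranged from -0.069 to 0.0029 (without VEGF 3) and Nrp2 from -0.12 to 0.0021 (without control 2), and Nrp2 was 0.018 without the 3 arrays of female pattern. Vegfa was -0.0047 with the projection neuron and -0.0080 with the thalamus list mean. These covariates share part of the group difference by construction. For the other changes the cause was not tested. Whether the replicate numbers pair the arrays cannot be told from these values. Deviations of same-numbered arrays from their group means correlated at 0.052, -0.13, 0.45 and 0.30, and 2 of 4 VEGF-labelled arrays correlated best with their own number. With the replicate block 14 members were at an unadjusted limma p under 0.05 on the lower side, and the median was -0.10. The lowest limma adjusted p of the family was then 0.159, so 0 passed. For none of the alternatives was the share of all genes at an unadjusted p under 0.05 counted. Signal over background is unknown, so dim probe sets could not be told from bright ones.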
